A study of Mus musculus with 4 samples.

Results

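The T cell attracting chemokines described here were the 4 genes Cxcl9, Cxcl10, Cxcl16 and Ccl5, among the 12596 genes of a count table of single colonic macrophages. They were chosen from the earlier comparison of exposed with control mice in the same table, so every difference between those groups in a member is given as a description, with no test. All 4 genes had counts in every mouse. The study gavaged male C57/Bl6N mice on 5 days a week for about 6 months. Each gavage of the DEP group (diesel exhaust particles, a particulate component of traffic air pollution) held 12 µg in 200 µL of phosphate-buffered saline (PBS), and the control group received PBS alone. Lamina propria cells of the colon that were CD11b+ and either Ly6C+ or CD64+, a gate for monocytes and macrophages, were sorted from each animal and loaded as 1 well of a droplet 3' RNA-sequencing run. There were 2 mice in each group, DEP mice 14 and 15 and PBS mice 2 and 3, so mouse and well cannot be told apart.

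Chemokines are small secreted proteins that bind G protein-coupled receptors on leukocytes and direct their movement. CXCL9 and CXCL10 both bind CXCR3, which activated T cells and NK cells carry. Their genes are textbook targets of interferon gamma, and Cxcl10 also of type I interferon and NF-kB. CCL5 binds CCR1 and CCR3, among other receptors, and attracts T cells, monocytes and eosinophils. CXCL16 is made as a membrane-anchored protein that also takes up oxidized lipoprotein, is shed by the proteases ADAM10 and ADAM17, and binds CXCR6 on tissue T cells and innate lymphoid cells.

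The genes lie in 3 places of the mouse genome (build GRCm38, GENCODE annotation), all on the minus strand and all protein coding. Cxcl9 (ENSMUSG00000029417) spans chr5:92321347-92328079 and Cxcl10 (ENSMUSG00000034855) spans chr5:92346638-92348889, with 18558 bases between them. The third CXCR3 ligand gene of that locus, Cxcl11, is annotated as a polymorphic pseudogene at chr5:92359544-92365485 and was not analysed here. Cxcl16 (ENSMUSG00000018920) lies at chr11:70453983-70459984 and Ccl5 (ENSMUSG00000035042) at chr11:83525778-83530518. Promoter windows were available for 2 of the 4 genes, the neighbours Cxcl9 and Cxcl10, and not for Cxcl16 and Ccl5. The 2 windows are shown, each from 250 bases before to 50 bases after the RefSeq transcription start (build GRCm38.p6, minus strand, Cxcl9 at chr5:92328030-92328329 and Cxcl10 at chr5:92348840-92349139). Capitals mark matches to 2 motifs searched on both strands, the interferon response element core (GAAA, any 2 bases, GAAA) and an NF-kB-like motif (GGG, any 5 bases, CC).
Cxcl9: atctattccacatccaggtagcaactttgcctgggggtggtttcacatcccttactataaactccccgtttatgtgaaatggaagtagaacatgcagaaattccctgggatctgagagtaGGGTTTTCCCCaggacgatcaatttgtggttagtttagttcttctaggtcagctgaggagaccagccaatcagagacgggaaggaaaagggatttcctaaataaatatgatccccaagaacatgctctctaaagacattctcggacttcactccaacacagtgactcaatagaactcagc
Cxcl10: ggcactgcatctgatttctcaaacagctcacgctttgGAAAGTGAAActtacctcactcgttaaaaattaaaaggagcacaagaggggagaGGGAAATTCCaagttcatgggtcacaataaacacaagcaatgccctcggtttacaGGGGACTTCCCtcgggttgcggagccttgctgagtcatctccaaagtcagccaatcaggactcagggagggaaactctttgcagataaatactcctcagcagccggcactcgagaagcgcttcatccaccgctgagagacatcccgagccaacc
The Cxcl10 window held the interferon element core 213 bases before the start, a match present in 3.44% of 32851 mouse promoter windows of the same length, and NF-kB-like matches 159, 104 and 103 bases before it, the last 2 overlapping. The Cxcl9 window held overlapping NF-kB-like matches 130 and 129 bases before the start and no interferon element core. The NF-kB-like letters occurred in 50.8% of all windows. The interferon gamma-activated site TTCNNNGAA, found in 8.30% of windows, was in neither. The search found exact letters only, so a missing match does not show that a window lacks an interferon-responsive element.

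The table held 943 cells, 189 and 334 from DEP mice 14 and 15 and 200 and 220 from PBS mice 2 and 3. They carried 952441, 1349134, 747351 and 1191408 unique molecular identifiers (UMIs, each 1 captured RNA molecule), with a median of 2757.5 to 4683.5 UMIs a cell. A level is given as counts for each 1000000 UMIs of the same cells (CPM), and a carrier is a cell with at least 1 UMI of the gene. Macrophage markers were abundant in every mouse, with a summed level of 20274 to 22630 CPM over 8 genes. The fits retained 648 cells, 112 and 196 from the DEP animals and 170 from each PBS animal. The others expressed at least 3 genes from the marker list of another cell type. Of the 295 cells left out, 276 were left out for B or plasma cell markers, mostly immunoglobulin transcripts, and the summed level of these markers over all cells was 21690 and 30234 CPM upon DEP against 1519 and 8671 CPM upon PBS. The 276 cells were deeper than the retained ones, with medians of 5319.5 and 3266 UMIs, and held 62.7% of the Cxcl9, 378 of 756 of the Cxcl10, 43.1% of the Cxcl16 and 43.2% of the Ccl5 UMIs. Only 16 cells had 3 or more B cell markers other than immunoglobulins. For this reason levels and carriers are described over all 943 cells, the fits are given with their values over all cells beside them, and the part of free immunoglobulin RNA in the choice of cells was not tested. A single barcode occurred in 2 mice.

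Cxcl9 was rare and higher in both DEP mice than in both PBS mice. Over all cells it gave 89 UMIs in 24 carriers in mouse 14 and 159 UMIs in 32 carriers in mouse 15, against 45 UMIs in 12 carriers in mouse 2 and 7 UMIs in 5 carriers in mouse 3. The levels were 93.4 and 118 CPM upon DEP and 60.2 and 5.88 CPM upon PBS. The groups did not overlap, as was the case for 19.3% of the 5113 genes tested over the retained cells in this direction. The mean was 106 ± 17.3 CPM upon DEP and 33.0 ± 38.4 CPM upon PBS (SD, n = 2 mice each), 3.20 times higher. The share of carriers was 12.7% (95% exact binomial interval 8.31 to 18.3%) and 9.58% (6.65 to 13.3%) in the DEP mice. It was 6.00% (3.14 to 10.3%) and 2.27% (0.74 to 5.22%) in the PBS mice, so the intervals of both DEP mice overlapped that of mouse 2. These intervals cover counting error only. The UMIs in each carrier overlapped between groups, with means of 3.71 and 4.97 upon DEP and 3.75 and 1.40 upon PBS. The size of the difference depended on mouse 3. In the edgeR fit over the retained cells the log2 fold change of Cxcl9 was 1.88 (SE 0.52), and it was 0.87 without mouse 3 and 4.26 without mouse 2.

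Cxcl10 was carried by a similar share of cells in every mouse and did not separate the groups. It gave 150 UMIs in 45 carriers in mouse 14, 304 in 91 in mouse 15, 169 in 50 in mouse 2 and 133 in 59 in mouse 3. The share of carriers was 23.8%, 27.2%, 25.0% and 26.8% in that order, each inside the intervals of the other mice. The levels of 157 and 225 CPM upon DEP overlapped the 226 and 112 CPM upon PBS. The means were 191 ± 48.0 and 169 ± 81.0 CPM (SD, n = 2).

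The level of Ccl5 was highest in mouse 14 and overlapped between the groups. Mouse 14 held 360 UMIs in 26 carriers, mouse 15 131 in 28, mouse 2 141 in 26 and mouse 3 76 in 11. The levels were 378 and 97.1 CPM upon DEP and 189 and 63.8 CPM upon PBS, with means of 238 ± 199 and 126 ± 88.3 CPM (SD, n = 2). Mouse 3 stood lowest. The fitted log2 fold change over the retained cells was 1.09 (SE 0.67), and it was -0.02 without mouse 14, 0.12 without mouse 3 and 3.97 without mouse 2.

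Cxcl16 was the most widespread member, and its level was nearly the same in all mice. It gave 882 UMIs in 149 carriers in mouse 14, 1152 in 235 in mouse 15, 652 in 152 in mouse 2 and 1044 in 174 in mouse 3. The levels were 926 and 854 CPM upon DEP and 872 and 876 CPM upon PBS, with means of 890 ± 51.0 and 874 ± 2.73 CPM (SD, n = 2). The share of carriers ran from 70.4% in mouse 15 to 79.1% in mouse 3. Over the retained cells alone the DEP mice, at 812 and 838 CPM, lay below the PBS mice, at 872 and 869 CPM, as was the case for 19.5% of the genes tested, so that the order of the groups rested on which cells were counted. Within each of the 4 clusters described below, the order was the reverse, with both DEP mice above both PBS mice, by a narrow margin in cluster 2. The share of genes with such an order in every cluster was not counted, so this is a description only.

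**Figure D1:**
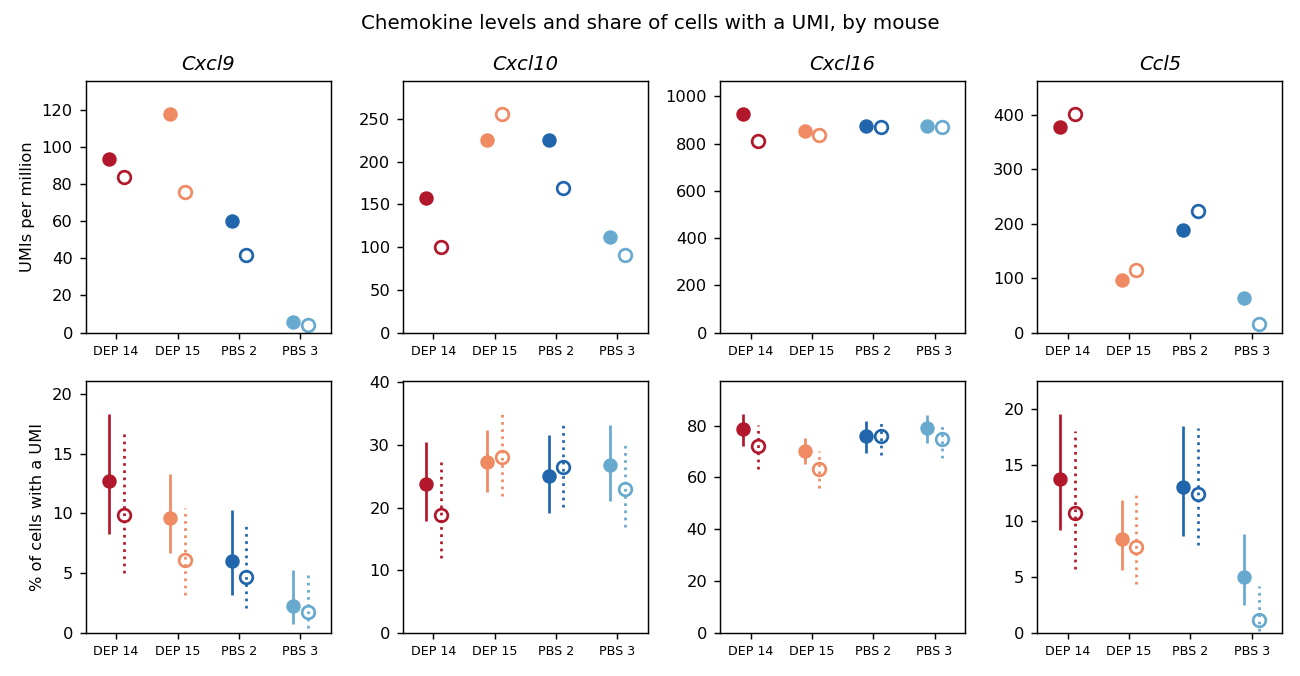
Level in CPM (top) and share of cells with at least 1 UMI (bottom, bars are 95% exact binomial intervals) of the 4 chemokines in each mouse, over all 943 cells (filled) and over the 648 retained cells (open, dotted bars). Only Cxcl9 lay higher in both DEP mice than in both PBS mice over all cells.

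The counts of Cxcl9 and Ccl5 rested on few cells. Of the 300 Cxcl9 UMIs in 73 carriers, 34.3% lay in 5 cells, and 9 cells held the first 50% of them. Of the 708 Ccl5 UMIs in 91 carriers, 44.8% lay in 5 cells and 7 cells held the first 50%. Cxcl10 was less concentrated, with 17.2% of 756 UMIs in 5 of 245 carriers, and Cxcl16 the least, with 2.73% of 3730 UMIs in 5 of 710 carriers. A single UMI was all that 53.4% of Cxcl9, 48.2% of Cxcl10, 49.5% of Ccl5 and 18.9% of Cxcl16 carriers had. With each cell thinned to 1000 UMIs, 4.23% and 4.49% of cells carried Cxcl9 upon DEP against 3.5% and 0.455% upon PBS.

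**Figure D2:**
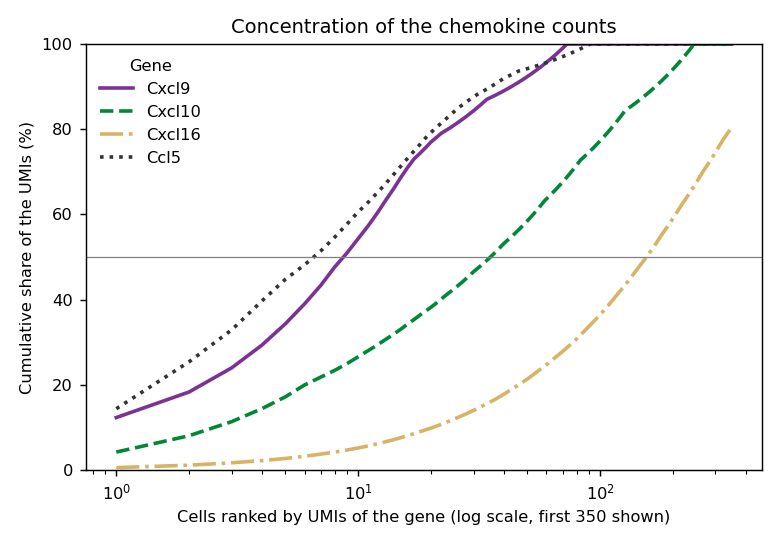
Cumulative share of the UMIs of each chemokine (vertical axis, %) over cells ranked by their UMIs of that gene (horizontal axis, log scale, first 350 of 943 cells). Ccl5 and Cxcl9 passed the 50% line within 7 and 9 cells, Cxcl10 within 36 and Cxcl16 within 156.

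Most of the richest cells also held macrophage transcripts. The top Ccl5 cell, in mouse 14, held 102 Ccl5 UMIs together with 13 of Cxcl9, 21 of Cxcl10, 18 of Cxcl16, 28 of the interferon-stimulated gene Isg15, 70 of the complement gene C1qa and 657 of the invariant chain gene Cd74. The next 4 held 78, 53, 48 and 36 Ccl5 UMIs, with 33 to 43 UMIs of C1qa. The top Cxcl9 cell, in mouse 15, held 37 Cxcl9, 16 Ccl5, 11 Gbp2, 93 C1qa and 799 Cd74 UMIs. None of the 8 richest cells of Cxcl9 or of Ccl5 had a T cell marker. They had 0 to 2 markers of the NK cell list and 0 to 3 of the dendritic cell list, and the top Cxcl9 cell had 2 and 3 of these. The top cell of each gene and 7 of the 8 richest Cxcl9 cells had at least 3 B or plasma cell markers and were left out of the fits. The top Cxcl10 cell, in mouse 2, held 32 Cxcl10, 13 Gbp2 and 274 Cd74 UMIs, none of C1qa or Cxcl16, and 6 B cell markers.

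Cells of other types were looked at for comparison. In the 16 cells with 3 or more non-immunoglobulin B cell markers (median 8375.5 UMIs) 1 carried Cxcl9, 6.25% with an exact interval of 0.16 to 30.2%, against 7.94% of the 907 cells without markers of another type (median 3743 UMIs). Cxcl10 was carried by 31.3% against 26.1%, Cxcl16 by 31.3% against 77.0%, and Ccl5 by 0 of 16, with an exact interval of up to 20.6%, against 9.81%. With 16 cells the intervals were too wide to tell these shares of Cxcl9, Cxcl10 and Ccl5 apart. The 16 cells were also no measure of free RNA, since 1 of them was the top Cxcl10 cell, with 32 of their 43 Cxcl10 UMIs. Carriers with a single UMI cannot be told from droplets with free RNA. Ccl5, which T and NK cells are known to make, had 1 UMI in 6 T-cell-marked cells and 8 UMIs in 1 of 5 NK- or lymphoid-marked cells, against 699 UMIs in the 907 cells. As levels these were 41.4, 243 and 175 CPM. The shares of carriers were 16.7% (exact interval 0.42 to 64.1%), 20.0% (0.51 to 71.6%) and 9.81%. The intervals were too wide to tell these shares apart.

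The 648 retained cells fell into 4 clusters, and Cxcl16 separated them most. Cluster 1 (258 cells, led by Mmp13, Mmp12, Rgs1 and Cd72) held 68.8% of the Cxcl16 UMIs, at 1355 and 1293 CPM upon DEP and 1070 and 1151 CPM upon PBS. Cluster 2 (161 cells, led by Ccl8, Pf4, Jund and Cx3cr1) stood at 832 and 798 CPM upon DEP and 622 and 784 CPM upon PBS, and cluster 4 (73 cells, led by Retnla, Ccl7, Cd163 and Lyve1) at 577 and 571 CPM upon DEP and 484 and 519 CPM upon PBS. Cluster 3 (156 cells, led by Plac8, Hp, Ly6c2 and Chil3, with all 10 markers of Ccr2+ monocytes higher than in the other cells, here called Ccr2+ monocyte-like) was lowest, at 334 and 257 CPM upon DEP and 204 and 143 CPM upon PBS. The 4 mice of cluster 1 lay above those of every other cluster, those of cluster 3 lay below, and those of clusters 2 and 4 did not overlap. With the clusters rebuilt without the chemokines and the interferon lists, the top and the bottom cluster had 1175 and 206 CPM.

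Cxcl9 had its highest level in cluster 3, with wide spread between mice. Cluster 3 held 55.4% of the 112 Cxcl9 UMIs of the retained cells in 24.1% of these cells, at 181 CPM in mouse 14, 162 in mouse 15, 131 in mouse 2, all from 1 cell, and 0 in mouse 3. These were 62 UMIs in 10 carriers. Cluster 1 had 28 UMIs in 15 carriers, cluster 2 had 21 in 8 and cluster 4 had 1. The share of carriers was 6.41% in cluster 3 (95% exact interval 3.12 to 11.5%) and 5.81% in cluster 1 (3.29 to 9.41%), so that the clusters differed in the UMIs of a few cells and not detectably in the share of carriers. When all 943 cells were clustered, the cluster with the highest Cxcl16 level (566 cells) held 199 Cxcl9 UMIs in 50 carriers, 66.3% of the total, at 66.8 CPM. A cluster of 184 cells with a low Cxcl16 level of 328 CPM held 27.7%, at 131 CPM, so the level but not most of the UMIs lay in the smaller cluster. Ccl5 had 119, 127 and 147 UMIs in clusters 1, 2 and 3, which held 39.8%, 24.8% and 24.1% of the retained cells. Among these clusters its level pooled over the mice was therefore not even, lowest in cluster 1 and highest in cluster 3. It had no UMI in the 73 cells of cluster 4. At 3 counts this allows a share of cells with a UMI of up to 4.11%, at a median of 2480 UMIs a cell, and sets no limit on the share of cells that express it. Cxcl10 carriers made up 20.5 to 26.4% of the cells of every cluster, and its levels of 130 to 217 CPM overlapped between clusters in the single mice.

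**Figure D3:**
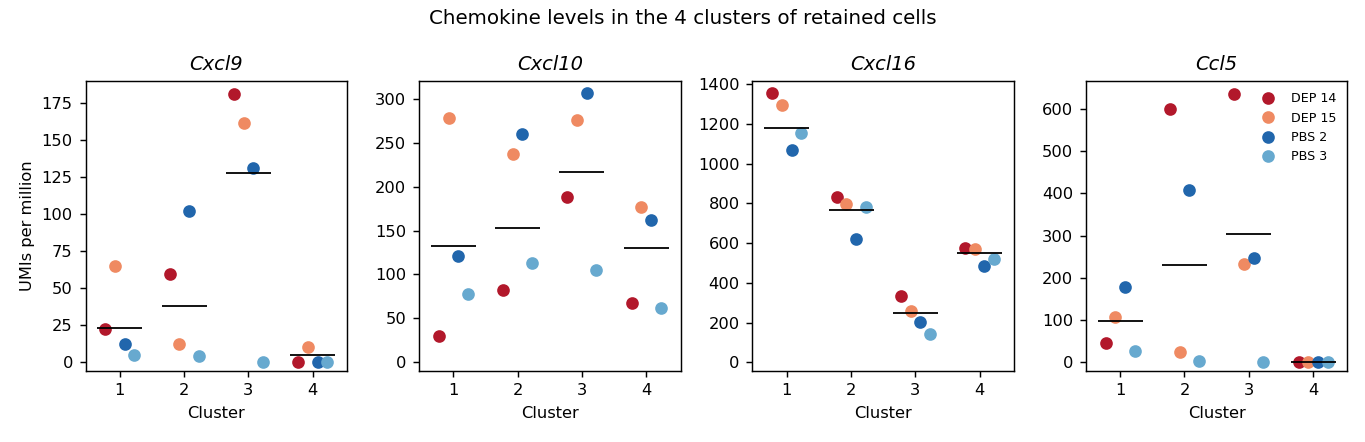
Level of each chemokine in CPM in the 4 clusters of retained cells, as points for each mouse and a line for the pooled level. Cxcl16 was highest in cluster 1 and lowest in the Ccr2+ monocyte-like cluster 3 in every mouse, and the Cxcl9 points of cluster 3 ran from 0 to 181.

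The carriers of Cxcl9, Cxcl10 and Ccl5 overlapped. Of the 73 Cxcl9 carriers 36 (49.3%) also carried Cxcl10, against 24.0% of the other cells, and 25 (34.2%) also carried Ccl5, against 7.59% of the other cells. As shares of the other lists these were 14.7% of Cxcl10 and 27.5% of Ccl5 carriers. The share of Ccl5 carriers among Cxcl9 carriers was higher than among the other cells in each mouse, 12 of 24 against 8.48% in mouse 14, 21.9% against 6.95% in mouse 15, 33.3% against 11.7% in mouse 2 and 40.0% against 4.19% in mouse 3. The 12 cells that carried all of Cxcl9, Cxcl10 and Ccl5 made up 1.27% of cells and held 25.0% of the Cxcl9, 9.79% of the Cxcl10 and 46.0% of the Ccl5 UMIs. The Ccl5 share was 71.1% in mouse 14, 13.0% in mouse 15, 36.9% in mouse 2 and 1.32% in mouse 3, and 20.1% over the mice without mouse 14. The Cxcl9 share without that mouse was 16.6%, and the Cxcl10 share 5.78%. Of these cells 6 were from mouse 14, 3 from mouse 15, 2 from mouse 2 and 1 from mouse 3. Carriers were deeper than other cells, with medians of 5498 and 3606 UMIs for Cxcl9 and 5472 and 3601 for Ccl5, and the part of depth in the overlap was not tested. Nearly all Ccl5 carriers, 89 of 91 (97.8%), also carried Cxcl16, against 72.9% of the other cells. Cxcl16 carriers were deeper as well, with medians of 4339.5 and 2487 UMIs.

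Within mice, the retained carriers of each chemokine were then compared with the other retained cells across all genes, with the mouse as a block and the chemokine itself left out of the calls. The question was which other transcripts the carriers hold. The 34 Cxcl9 carriers (11, 12, 8 and 3 in mice 14, 15, 2 and 3) differed in 45 of 5112 genes at an adjusted p under 0.05. Of these 16 (0.313% of genes tested) were higher and 29 (0.567%) lower in carriers, and over all 943 cells the split was 31 higher and 20 lower. The median log2 fold change of all genes was -0.28, and with DESeq2 size factors it was -0.08 and the split 24 and 16. So the fold changes below are to be read against that median. Ccl5 stood first, with a log2 fold change of 3.48 (SE 0.31, adjusted p = 1.4e-24). It was at 2437 against 50.5 CPM in mouse 14, 379 against 93.8 in mouse 15 and 1645 against 122 in mouse 2, and it had no UMI in the 3 carriers of mouse 3. DESeq2 gave 3.08 with an adjusted p of 0.108. With every cell thinned to 1000 UMIs, no gene passed as higher in Cxcl9 carriers and 44 passed as lower, and Ccl5 had 1.78 (adjusted p = 0.143). Cxcl10 was higher by 1.72 (SE 0.32, adjusted p = 3.4e-05), in 4 of 4 mice, and lost its call without mouse 15 (1.41, adjusted p = 0.15).

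Among the interferon gamma genes, 2 of 30 tested were higher in Cxcl9 carriers and none lower, with a list median of 0.33 beside -0.28 for all genes. They were Gbp2, a guanylate-binding GTPase of antimicrobial defence (log2 fold change 2.69, SE 0.40, adjusted p = 2.53e-08), and the proteasome activator gene Psme2 (1.0, SE 0.28, adjusted p = 0.0371). Gbp2 was at 293 against 37.2 CPM in mouse 14, 959 against 55.6 in mouse 15 and 101 against 50.1 in mouse 2, and had no UMI in the mouse 3 carriers. Mouse 15 carried much of this, since the value fell to 1.82 (adjusted p = 0.22) without it. Psme2 did not pass without mouse 14 (adjusted p = 0.128), mouse 15 (0.858) or mouse 2 (0.27). Of 33 type I interferon genes, Isg15, a ubiquitin-like modifier (1.23, SE 0.31), and the DNA sensor Ifi205 (1.54, SE 0.36) were higher and the antiviral membrane protein gene Ifitm3 lower (-0.93, SE 0.23), with a list median of -0.01. Isg15 lost its call without mouse 14 (0.79, adjusted p = 0.743) or mouse 15 (1.06, adjusted p = 0.423), Ifi205 without mouse 15 (adjusted p = 0.858) or mouse 2 (0.229), and Ifitm3 without mouse 15, 2 or 3 (0.333, 0.133 and 0.32) and over all cells (0.614). The interferon receptor and signalling genes gave 0 of 15 calls.

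Inflammatory genes also stood high in Cxcl9 carriers. Il1rn, the interleukin 1 receptor antagonist, rose by 2.09 (SE 0.33, adjusted p = 3.77e-07) and was at 386 against 71.8, 580 against 158 and 708 against 57.3 CPM in mice 14, 15 and 2, with no UMI in the mouse 3 carriers. Sdc4, the heparan sulfate proteoglycan syndecan 4, rose by 1.48 (SE 0.25) in 4 of 4 mice. Of 25 NF-kB response genes 4 rose, namely Sod2 (1.78, SE 0.30), Ptgs2 (1.59, SE 0.35), Il1a (2.25, SE 0.53) and Tnip3 (1.46, SE 0.39), and none fell, with a median of 0.15. Sod2, Sdc4, Il1rn and Il1a kept their calls with each mouse left out for which they were tested. Ptgs2 lost its call without mouse 14 or 2 (adjusted p = 0.481 and 0.0509) and Tnip3 without mouse 15 or 2 (0.847 and 0.797). The lower genes held 7 of 17 genes of the early stress response to tissue dissociation, with a median of -0.64, among them Jun (-1.40, SE 0.21, adjusted p = 3.11e-08) and Fos (-0.90, SE 0.17, adjusted p = 8.98e-05). Jun was lower in 4 of 4 mice and passed in all 13 alternatives. Over all cells Jun was at -0.64 and Fos at -0.39, the latter with an adjusted p of 0.0976. The summed dissociation genes stood at 20143 to 24109 CPM in carriers and 24416 to 32723 CPM in other cells, and their part in the other differences was not tested. Of the other chemokines 1 of 12 changed, Ccl3 (-1.06, SE 0.21, adjusted p = 0.000192), which did not pass over all cells (-0.15, adjusted p = 0.943) or without mouse 2 (adjusted p = 0.136).

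**Figure D4:**
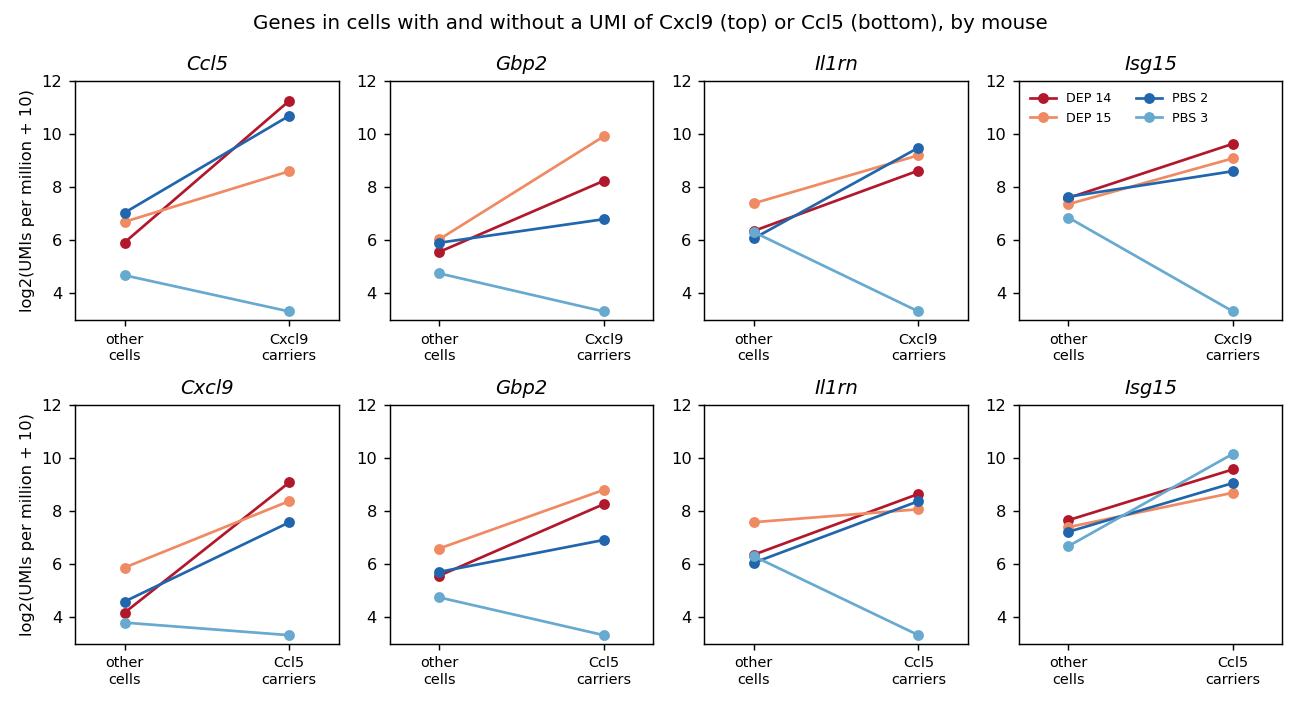
Level of 4 genes as log2 of CPM plus 10 in cells without and with a UMI of Cxcl9 (top row) or Ccl5 (bottom row), with a line for each mouse, over the retained cells. The lines of mice 14, 15 and 2 rose in every panel. PBS mouse 3 had 3 Cxcl9 and 2 Ccl5 carriers, and of these genes only Isg15 had UMIs there, in the Ccl5 carriers.

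The 50 Ccl5 carriers (12, 15, 21 and 2 in mice 14, 15, 2 and 3) gave 14 calls, 6 genes higher (0.117% of genes tested) and 8 lower (0.156%). Over all cells 29 genes passed, 8 higher and 21 lower. Cxcl9 was higher by 3.69 (SE 0.37, adjusted p = 1.55e-19), at 530 against 7.96 CPM in mouse 14, 322 against 48.4 in mouse 15 and 180 against 14.04 in mouse 2, with no UMI in the 2 carriers of mouse 3. Isg15 rose by 1.89 (SE 0.27, adjusted p = 1.46e-08) in 4 of 4 mice, and it was the 1 of 33 type I interferon genes to pass. Gbp2 rose by 2.17 (SE 0.34, adjusted p = 5.22e-07), the 1 of 30 interferon gamma genes to pass. Cxcl9, Isg15 and Gbp2 passed with each mouse left out for which they were tested. With cells thinned to 1000 UMIs no gene passed as higher and 2 passed as lower, and Isg15 had 1.67 (adjusted p = 0.12). Il1a (2.42, SE 0.48), Il1rn (1.6, SE 0.32) and Cxcl10 (1.22, SE 0.31) also passed, but not without mouse 14 (adjusted p = 0.379, 0.497 and 1.0) and, for Il1rn and Cxcl10, not without mouse 2 (0.993 each). Over all cells these 3 stood at 1.11, 1.0 and 0.79 with adjusted p of 0.244, 0.052 and 0.0636.

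Genes of Ccr2+ monocytes were low in Ccl5 carriers, with 3 of 9 lower and a list median of -1.57 beside -0.15 for all genes. The Ccl5 level pooled over the mice was nevertheless highest in the Ccr2+ monocyte-like cluster 3. The monocyte surface gene Ly6c2 fell by 3.15 on the log2 scale (SE 0.56, adjusted p = 3.16e-05) and the interferon-induced membrane gene Ifitm6 by 2.12 (SE 0.51, adjusted p = 0.0208), and Fn1, the fibronectin gene, was the third. Ly6c2 passed with each mouse left out, and Ifitm6 did not without mouse 14 (adjusted p = 0.339), mouse 15 (0.132) or mouse 2 (0.993). No MHC class II gene (0 of 8) passed, with a median of 0.05. The T cell marker list summed to 0 to 16.1 CPM in Ccl5 carriers and 8.02 to 21.2 CPM in other cells, and the NK cell list to 0 to 113 and 46.1 to 63.7 CPM.

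The 160 Cxcl10 carriers (21, 55, 45 and 39 in mice 14, 15, 2 and 3) gave 14 calls, 12 genes higher (0.235%) and 2 lower (0.0391%), and over all cells 19. Isg15 led, with a log2 fold change of 1.26 (SE 0.18, adjusted p = 0.000428), at 735 against 167, 264 against 143, 311 against 140 and 150 against 86.4 CPM in mice 14, 15, 2 and 3. It was the 1 of 33 type I interferon genes to pass, with a list median of 0.07, and no interferon gamma gene (0 of 30) did. Gbp2 had a value of 0.56 (SE 0.37, adjusted p = 0.905). Il1rn rose by 1.31 (SE 0.21, adjusted p = 0.00106) and Cxcl9 by 2.08 (SE 0.36, adjusted p = 0.00279), each in 4 of 4 mice. Ccl5 had 2.6 (SE 0.40), which fell to 1.38 (adjusted p = 0.105) without mouse 14 and to 1.41 (adjusted p = 0.104) over all cells. Of 12 other chemokines, the macrophage inflammatory protein gene Ccl4 (0.48, SE 0.09), the neutrophil attractant gene Cxcl2 (0.40, SE 0.08) and the platelet factor gene Pf4 (0.44, SE 0.10) rose, and of 25 NF-kB response genes Tnf (0.72, SE 0.16), Il1b (0.42, SE 0.09) and Nfkbia (0.41, SE 0.09) did. These 6 calls were small and lost without at least 1 mouse each, Ccl4, Cxcl2, Tnf, Il1b and Nfkbia without mouse 14 (adjusted p = 0.194, 0.107, 0.175, 0.194 and 0.194) and Pf4 without mouse 2 or 3 (0.812 and 0.501). The heat shock gene Hspa1a (-0.65, SE 0.10) and Ifitm6 (-1.03, SE 0.22) were lower, the latter not without mouse 15, 2 or 3 (adjusted p = 0.526, 0.161 and 0.238). Without the mouse block no gene passed, with 219 at an unadjusted p under 0.05 and 4 calls by DESeq2 with the block.

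The 461 Cxcl16 carriers (81, 124, 129 and 127 in mice 14, 15, 2 and 3) differed most, in 440 genes, 222 higher (4.34%) and 218 lower (4.26%). All 8 MHC class II presentation genes rose, with a list median of 1.27 beside 0.01 for all genes. Cd74 rose by 1.29 (SE 0.07, adjusted p = 1.08e-13), from 29230 to 39010 CPM in other cells to 67424 to 71794 CPM in carriers, with no overlap over the mice. H2-Ab1 had 1.40 (SE 0.08), H2-Aa 1.38 (SE 0.08) and H2-Eb1 1.40 (SE 0.08). Of 12 markers of Ccr2- resident macrophages 9 rose, among them the complement gene C1qb (1.41, SE 0.09) and the lipoprotein gene Apoe (1.27, SE 0.08). All 9 Ccr2+ monocyte markers tested fell, with a median of -3.03, for example Ifitm6 by 3.44 (SE 0.22). In cluster 1 only 1, 3, 12 and 6 cells of mice 14, 15, 2 and 3 lacked a Cxcl16 UMI. The carriers there numbered 28, 60, 86 and 62. With so few other cells, a call lost within cluster 1 does not show that a difference is absent there. Within cluster 1 alone 15 genes passed, all higher, beside a median log2 fold change of 0.77 for all genes, and Cd74 (0.99, SE 0.24, adjusted p = 0.0207), H2-Ab1 (1.12, SE 0.26, adjusted p = 0.0143) and Ms4a7 (1.45, SE 0.35, adjusted p = 0.0207) were among them, while C1qb (adjusted p = 0.052) and Apoe (0.13) were not.

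Interferon genes were divided in Cxcl16 carriers. Of 33 type I interferon genes 15 fell and 2 rose, with a median of -0.80. Within cluster 1, with only 1 to 12 other cells in each mouse, none of the lower calls remained. Ifitm3, Ms4a4c and Ifi204 had positive values there (0.31, 1.20 and 0.91) beside a median of 0.77 for all genes. So few other cells cannot decide whether the lower values hold within the cluster. Over all retained cells the summed level of the list was 2518 to 5358 CPM in carriers against 6308 to 13179 CPM in other cells, with each mouse lower in carriers. Ifi27l2a (-1.20, SE 0.12, adjusted p = 2.49e-08), the nucleotide hydrolase gene Samhd1 (-1.68, SE 0.17, adjusted p = 2.88e-08) and Irf7 (-1.34, SE 0.29, adjusted p = 0.00198), the transcription factor of the interferon response, were among the lower. Irf7 lost its call without mouse 15 (adjusted p = 0.0821). Of 30 interferon gamma genes 5 rose and none fell, with a median of 0.22. They were the Fc receptor gene Fcgr4 (1.56, SE 0.18), Gbp2b (3.09, SE 0.45), Gbp8 (1.94, SE 0.56), the lineage factor gene Irf8 (0.79, SE 0.16) and Cd274, which encodes the checkpoint ligand PD-L1 (2.29, SE 0.50). Cd274 and Gbp8 lost their calls without mouse 15 (adjusted p = 0.0728 and 0.207), and Gbp8 also without mouse 14 or 3 (0.0693 and 0.11). Gbp2 had a value of 0.05 (adjusted p = 0.981). The Ccr2+ monocyte markers summed to 701 to 1678 CPM in Cxcl16 carriers and 4515 to 8750 CPM in other cells.

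T cell directed signals, other chemokines and receptors were called mainly in the Cxcl16 comparison. Of 19 T cell directed genes 4 rose there, Cd274, the costimulatory ligand gene Cd86 (0.81, SE 0.19), Slamf7 (1.13, SE 0.26) and the checkpoint receptor gene Havcr2 (1.61, SE 0.49), and 0 passed in each of the 3 other comparisons. The first 3 lost their calls without mouse 15 (adjusted p = 0.0728, 0.0774 and 0.0534), and Havcr2 without any 1 of the mice (0.0518 to 0.19). Of the other chemokines 7 of 12 rose and 3 fell in Cxcl16 carriers, for example the neutrophil attractant gene Cxcl1 (1.74, SE 0.18), Ccl4 (0.85, SE 0.09) and the monocyte attractant gene Ccl12 (1.14, SE 0.17) higher and Ccl6 (-1.57, SE 0.14) and Ccl9 (-1.37, SE 0.12) lower. Within cluster 1, with only 1 to 12 other cells in each mouse, the last 2 had positive values (0.99 and 1.63, adjusted p = 0.49 and 0.336). Ccl5 had 393 UMIs in the 461 carriers and none in the 187 other retained cells, at least 32.0-fold higher against a floor of 3 counts over that group. Over all cells its log2 fold change was 3.88 (SE 0.41). There the Cxcl16 carriers were deeper, with medians of 4339.5 and 2487 UMIs, and the part of depth was not tested. Cxcl9 had 109 UMIs in carriers and 3 in other cells. Cxcl10 was higher by 0.89 (SE 0.26, adjusted p = 0.028), which did not hold without mouse 15 (adjusted p = 0.63), without mouse 2 (0.0656) or over all cells (0.14).

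Transcripts of the receptors were at the edge of detection or common in the sorted cells, and protein of these receptors was not measured. Cxcr3, the receptor of CXCL9 and CXCL10, gave 10 and 8 UMIs upon DEP and 14 and 15 upon PBS over all cells, and at most 2 in 1 cell. Cxcr6, the CXCL16 receptor, gave 0, 4, 2 and 1 UMIs in mice 14, 15, 2 and 3, and Ccr3 gave 0, 1, 2 and 1. The CCL5 receptor gene Ccr1 was common, with 280, 373, 201 and 304 UMIs in the same order. The sheddase genes Adam10 and Adam17 were not called in any of the 4 comparisons.

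**Figure D5:**
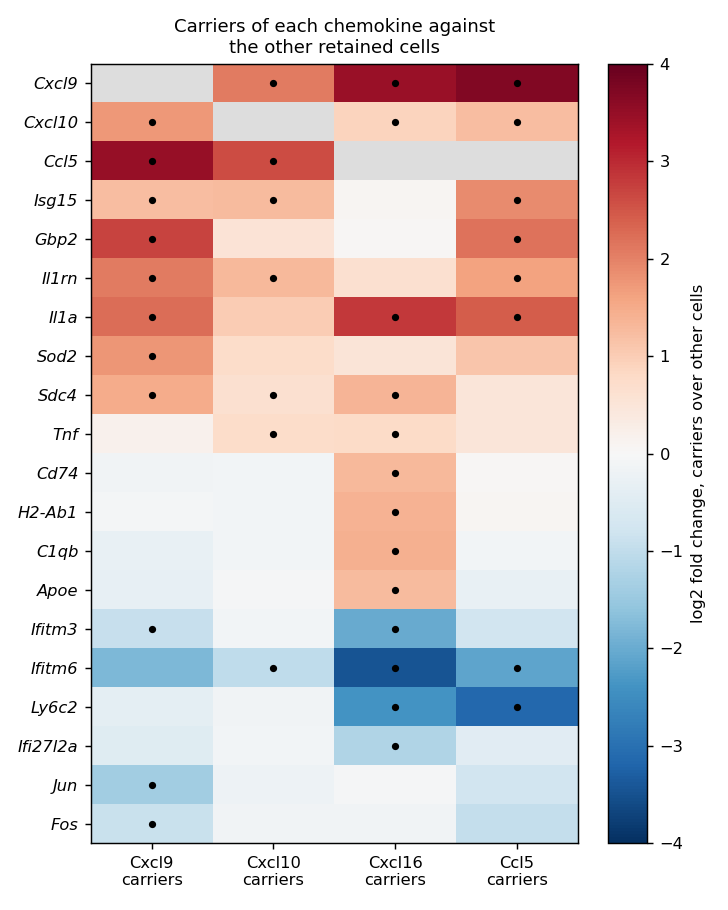
Log2 fold change of 20 genes (rows, picked for display) in retained carriers of each chemokine against the other retained cells (columns), with a dot where the adjusted p was under 0.05 and grey where no fold is given. Isg15 was dotted for Cxcl9, Cxcl10 and Ccl5 carriers, Cd74 and H2-Ab1 for Cxcl16 carriers only, and Ifitm6 was negative in all 4 columns, with no dot for Cxcl9. The comparisons share cells, so the columns are not independent.

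The genes most alike to each member were ranked by Pearson correlation of log2(CPM + 10) over the 16 libraries of 1 mouse and 1 cluster, as a description over libraries that share mice and differ in depth. Ccl5 (r = 0.90) was most like Cxcl9, followed by Calhm6 (0.87), Psme2 (0.86), Ascc1 (0.82) and Pde6d (0.80). For Ccl5 the order was Cxcl9, Nudt19 (0.82), Calhm6 (0.81), Nr1h3 (0.81) and Farsa (0.76). Cxcl16 was most like Cd72 (0.97), Cd74 (0.97), H2-Ab1 (0.97), H2-Aa (0.94) and H2-Eb1 (0.93). The values for Cxcl10 were lower, with Med30 (0.74) and Creld2 (0.74) first, and Cxcl9 at 0.57.

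The surrounding programmes upon DEP, tested over 4 library sums, showed little that passed. Of 5113 genes, 6 were higher (0.117%) and 1 lower (0.0196%), and 410 had an unadjusted p under 0.05. Over all cells 1 gene passed. Of 33 type I interferon genes Ifitm3 (0.92, SE 0.14, adjusted p = 0.0132) and Ifi205 (1.60, SE 0.26, adjusted p = 0.0228) were higher, with a median of 0.53 beside -0.0042 for all genes, and both missed the threshold over all cells (adjusted p = 0.458 and 0.126). Ifitm3 also missed it without mouse 2 (0.0532). None of 30 interferon gamma genes passed, with a median of 0.29. Gbp2 had 1.54 (SE 0.39, adjusted p = 0.212). Of 9 Ccr2+ monocyte markers Plac8 (1.61, SE 0.15) passed, with a median of 0.83, and the summed level of this list over the retained cells was 3148 and 3004 CPM upon DEP against 1277 and 1576 CPM upon PBS. Over all cells this sum was 1874 and 1867 CPM upon DEP against 1157 and 1247 CPM upon PBS. The type I interferon list summed to 6984 and 5482 against 3424 and 3455 CPM over the retained cells. Over all cells it summed to 5546 and 4410 against 3285 and 3103 CPM. The retained cells were 59.3% and 58.7% of the cells of the DEP mice and 85.0% and 77.3% of those of the PBS mice. The part of this choice of cells, and of the monocyte-like cells, in the interferon and Cxcl9 values was not tested.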

How the data were processed

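Colonic lamina propria cells of 2 DEP and 2 PBS mice were measured with the 10x 3' kit (v2). The authors aligned reads with Cell Ranger and STAR 2.6.1a to mm10 and deposited 1 table of UMI counts, not normalized, after their cell filters. Identifiers were matched to symbols for 12576 of 12596 genes. Members and gene lists were chosen with earlier results of these data known. Cells expressing at least 3 marker genes of another cell type were left out. The authors checked for doublets by simulation before deposit, and no doublet caller was run here, so doublets among the deepest cells were not tested. This rule, kept as planned, mostly met immunoglobulin RNA, so each fit was repeated without immunoglobulin markers (907 cells), a setting added after seeing the data. Counts were summed for each mouse, or for carriers and other cells of each mouse, and tested with edgeR 4.0.16 (quasi-likelihood, TMM, R 4.3.3) with Benjamini-Hochberg adjustment, for genes above 1 CPM in 2 libraries and with a UMI in 5% of cells. Cells were clustered with scran 1.30.0 (500 most variable genes, 4 clusters). Alternatives were DESeq2 1.42.0, its size factors, no filter, all cells, cells thinned to 1000 UMIs, carriers with at least 2 UMIs, the largest cluster, no mouse block and each mouse left out. Genes named were the members, their receptors, per carrier comparison the 8 higher and 4 lower genes with the smallest p (a selection of these is given), list members that passed or had the largest fold, and the 5 genes most alike in level. The fits were also run on simulated counts with known fold changes, and the outcome is not given here. That simulation had a common dispersion, no difference between mice and changes in better expressed genes only. It therefore does not cover sums over few carriers. Groups of 2 mice limit precision, and p-values of the DEP fit measure the spread between these mice. In the carrier fits, with the mouse as a block, they measure how far the difference between carriers and other cells varied over the mice. Binomial intervals (scipy 1.17.1) cover counting error only. Results on some genes are not reported here.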

Additional observations from a re-analysis of the deposited data

Results flagged for a closer look

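The cells left out of the fits for markers of another cell type held chemokine counts well above the limit of 3 counts that a count of 0 allows. These cells held 188 Cxcl9, 381 Cxcl10, 1651 Cxcl16 and 315 Ccl5 UMIs. The Cxcl9 UMIs all lay in the 276 cells left out for B or plasma cell markers, where 14.1% of cells carried Cxcl9 against 5.25% of the retained cells, at 110 and 45.9 CPM. The median depth of the same cells was 5319.5 and 3266 UMIs. The part of depth and of immunoglobulin RNA in these shares was not tested.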

How the results depend on the processing

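The counts of called genes depended on the processing. Upon DEP 7 genes passed, and 3 with DESeq2, 79 without the filter, 1 over all cells, 1 without immunoglobulin markers, 16 after thinning and 9 to 75 with a mouse left out. For Cxcl9 carriers 45 became 11 with DESeq2, 102 without the filter and 17 to 49 with a mouse left out (17 without mouse 2 and 18 without mouse 15). Their split of 16 higher and 29 lower became 0 and 44 after thinning and 5 and 53 in the largest cluster. For Cxcl10 carriers 14 became 4 with DESeq2, 26 without the filter, 2 after thinning, 30 without immunoglobulin markers, 8 with carriers of at least 2 UMIs, 2 in the largest cluster, 0 without the mouse block and 6 to 15 with a mouse left out. For Cxcl16 carriers 440 became 219 with DESeq2, 135 after thinning, 15 in the largest cluster and 292 to 397 with a mouse left out. For Ccl5 carriers 14 became 4 with DESeq2, 25 without the filter, 29 over all cells, 2 after thinning, 29 without immunoglobulin markers, 1 in the largest cluster, 9 without the mouse block and 6 to 22 with a mouse left out. The cause was not tested, except that thinning and single clusters leave fewer UMIs. In the largest cluster only 1 to 12 cells of each mouse lacked a Cxcl16 UMI. Among the genes named by the rule, these called values changed sign, in the largest cluster unless stated, for Cxcl16, Tmsb10 (0.52), Ifitm3 (0.31), Ier2 (0.20), Ccl9 (1.63), Ccl6 (0.99), Ms4a4c (1.20) and Ifi204 (0.91), for Ccl5 S100a10 (0.20), and for Cxcl10 Ccl4 (-0.0367, largest cluster) and Nfkbia (-0.14, thinned). The Cxcl9 level of its highest cluster was 128 CPM and 224 CPM with 5 clusters. After thinning the top 5 cells held 3.62% of the Cxcl16 and 33.3% of the Ccl5 UMIs. No paired analysis was possible because the groups share no replicate numbers.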
